A study of Mus musculus with 44 samples.

Results

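IRF3 peaks were compared between lipopolysaccharide-treated (LPS) and untreated bone marrow-derived macrophages of C57BL/6 mice that lack Dnmt3a, an enzyme that places new DNA methylation. Every peak of the 2 deposited lists of IRF3 chromatin immunoprecipitation (ChIP-seq) in these knockout (KO) cells was taken. A peak counted as shared when it overlapped a peak of the other list by at least 1 bp. The LPS list merges 3 samples and holds 1792 peaks, and the untreated list merges 2 samples and holds 1707. Together they hold 3499 of the 15489 peaks in the 8 lists of the series, which cover IRF3 and NF-kB, KO and wild type (WT), with and without LPS.

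All groups were grown from whole marrow with M-CSF (30 ng/ml) in medium with 10% serum. Harvest fell on day 8 to 10 of culture, after 6 hours with or without 10 ng/ml LPS. The groups set beside the KO IRF3 lists are WT IRF3 (2 LPS samples and 3 untreated), KO NF-kB and WT NF-kB (3 samples for each treatment). The labels name neither the NF-kB subunit nor the driver of the Dnmt3a deletion, nor do they say whether samples of a group came from separate mice. The deletion could not be checked from peak positions, and neither could the macrophage label, because the lists carry no expression. Each list is a merge, so no spread between replicates exists and no test between treatments was made. Intervals in brackets are 95% Clopper-Pearson (exact) intervals for shares. They hold counting error and nothing else, and the read depth behind the lists is unknown. The lists also differ in their number of merged samples, whose part in any difference was not tested.

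IRF3 is a transcription factor that rests in the cytoplasm of unstimulated cells. LPS binding to TLR4 leads, through the adaptor TRIF and the kinase TBK1, to its phosphorylation and entry into the nucleus. There it takes part in switching on the interferon beta gene and interferon-stimulated genes, through a DNA element built on repeats of GAAA. NF-kB is switched on by the same receptor and acts on many of the same promoters.

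Few KO IRF3 peaks lay on gene starts (0.52% of the LPS list and 0.363% of the untreated list, beside 0.58% and 0.53% of the WT IRF3 lists). The few start windows they touched show sequence under and beside those peaks. Start windows run from 250 bases before to 50 bases after an annotated start. Peaks of the 2 lists touched 11 of 32851 such windows, 8 of them of long non-coding RNA genes, which hold 35.3% of all windows. The sequences are RefSeq's for GRCm38.p6 (mm10), printed 5′ to 3′ on the strand of the gene. Capitals mark a match, on either strand, to 1 of 4 short motifs: GAAANNGAA (the core of the interferon-response element that IRF3 binds), GGANNTTCC (NF-kB), GAGGAAGT (PU.1, the macrophage lineage factor) and TGANTCA (AP-1). The first window, Gm46074 on the plus strand of chr8:20649078-20649377, lay wholly under the best-ranked peak that touched a start (rank 16 with LPS and 12 without). The other 4 are Gm36816 (minus strand, chr6:67008938-67009237, shared), Gm40237 (plus strand, chr4:118547156-118547455, shared), Gm34735 (minus strand, chr9:121270297-121270596, found with LPS alone) and Vmn1r103 (minus strand, chr7:20510485-20510784, found with LPS alone, the window with the PU.1 match).
Gm46074: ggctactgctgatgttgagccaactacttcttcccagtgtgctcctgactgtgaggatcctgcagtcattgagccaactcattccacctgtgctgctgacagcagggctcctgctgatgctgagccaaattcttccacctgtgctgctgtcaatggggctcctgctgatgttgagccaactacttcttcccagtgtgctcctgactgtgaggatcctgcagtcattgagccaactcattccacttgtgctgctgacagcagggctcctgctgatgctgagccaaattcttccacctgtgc
Gm36816: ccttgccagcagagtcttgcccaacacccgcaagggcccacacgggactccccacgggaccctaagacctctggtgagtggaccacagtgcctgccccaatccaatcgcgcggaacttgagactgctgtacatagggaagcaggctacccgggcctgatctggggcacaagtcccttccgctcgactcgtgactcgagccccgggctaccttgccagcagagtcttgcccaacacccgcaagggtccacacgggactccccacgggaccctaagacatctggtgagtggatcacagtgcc
Gm40237: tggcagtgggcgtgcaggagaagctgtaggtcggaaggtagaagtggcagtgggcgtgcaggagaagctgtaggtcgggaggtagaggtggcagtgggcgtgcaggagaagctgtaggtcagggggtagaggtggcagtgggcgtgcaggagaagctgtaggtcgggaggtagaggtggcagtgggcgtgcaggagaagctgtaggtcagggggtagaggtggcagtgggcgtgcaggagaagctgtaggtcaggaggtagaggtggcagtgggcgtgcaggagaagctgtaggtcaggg
Gm34735: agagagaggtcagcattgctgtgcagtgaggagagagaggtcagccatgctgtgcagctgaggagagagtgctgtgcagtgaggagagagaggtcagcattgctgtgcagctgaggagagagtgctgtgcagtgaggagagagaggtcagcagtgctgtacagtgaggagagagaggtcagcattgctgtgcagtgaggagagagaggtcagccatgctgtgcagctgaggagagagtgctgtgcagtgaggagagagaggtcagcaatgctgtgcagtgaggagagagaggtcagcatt
Vmn1r103: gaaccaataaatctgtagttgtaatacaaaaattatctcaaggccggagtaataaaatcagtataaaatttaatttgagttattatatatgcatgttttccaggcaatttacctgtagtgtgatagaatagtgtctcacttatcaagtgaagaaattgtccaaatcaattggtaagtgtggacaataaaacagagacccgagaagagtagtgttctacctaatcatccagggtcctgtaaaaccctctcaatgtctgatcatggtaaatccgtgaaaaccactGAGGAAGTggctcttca

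Several of these windows repeat themselves. In the Gm40237 window 90.0% of all 12-base words occurred more than once, in Gm34735 88.9%, in Gm46074 85.5% and in Gm36816 32.5%, against 0.0% in Vmn1r103. Of the 11 windows, 6 had more than 10% of their words repeated, while 1.33% of all windows did. This word count was chosen after the sequences were seen. None of the 11 windows held the interferon-response core, which stands in 8.56% of all windows. Repeats and motifs were counted over whole windows, parts of which lay outside the peaks. Of 300 bases, 62 in Vmn1r103, 200 in Gm34735 and 230 in Gm40237 lay under the peak, and all 300 in Gm46074 and Gm36816. The least was 10 bases, in Gm52195. Peak sequence outside the windows was not searched. The PU.1 letters (3.20% of all windows) stood in the Vmn1r103 window at chr7:20510494-20510501, under the peak. The NF-kB letters (4.26% of all windows) stood in the window of the shared peak at Gm51701, but outside the peak. No window held the AP-1 letters (7.81% of all). A match is a description of the letters and not of binding.

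Of the LPS list, 1006 peaks (56.1%, 53.8 to 58.5%) overlapped an untreated peak and 786 (43.9%) did not. Of the untreated list, 1030 (60.3%, 58.0 to 62.7%) overlapped an LPS peak and 677 (39.7%) did not. A large share of positions therefore stood in both lists, and each list also had many of its own. The corresponding split of the WT IRF3 lists left 53.9% of the LPS list and 45.1% of the untreated list unshared. In the KO NF-kB lists 37.8% of the LPS list and 54.0% of the untreated list were unshared, and in the WT NF-kB lists 62.0% and 33.3%. The KO IRF3 lists thus had less unshared in both directions than the WT IRF3 lists, which were shorter (1424 and 1169 peaks). Set against the NF-kB lists the order depended on the direction. None of these differences was tested.

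Where a peak was shared, it lay in nearly the same place. Of the 1006 shared LPS peaks, 940 overlapped 1 untreated peak and 66 overlapped 2. The median overlap was 1261.5 bp, and the 2 peaks had in common a median of 80.0% of the stretch they covered (quartiles 61.0 and 90.0%). The LPS peak was the wider one in 546 cases and the narrower one in 455, with a median difference of 32 bp. At the edge of the rule, 3 shared peaks overlapped by less than 10% of either, and 12 LPS-alone peaks lay within 1 kb of an untreated peak. The median LPS-alone peak was 388869.5 bp from the nearest untreated peak. Some peaks touched the next peak of their own list with no base between: 136 in the LPS list (7.59%) and 212 in the untreated list (12.4%). Joined into single regions, 44.0% of 1724 LPS regions and 39.3% of 1601 untreated regions were unshared.

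Peaks found in 1 treatment stood low in their lists, which were ranked here by the deposited p-value. Of the 100 best-ranked LPS peaks, 99 overlapped an untreated peak and 1 did not. The unshared share was 3.00% at ranks 101 to 200, 13.7% at 201 to 500, 40.4% at 501 to 1000, 61.8% at 1001 to 1500 and 78.8% (73.6 to 83.3%) from 1501 on. In the untreated list it ran from 3.00% of the first 100 to 59.9% of the last 207. Sharing with the other whole list did not mean the same order, since 55 of the best 100 LPS peaks overlapped a peak among the best 100 without LPS. Only 143 LPS peaks and 114 untreated peaks had a deposited q-value below 0.05. Among those, 1 LPS peak and 3 untreated peaks were unshared.

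**Figure D1:**
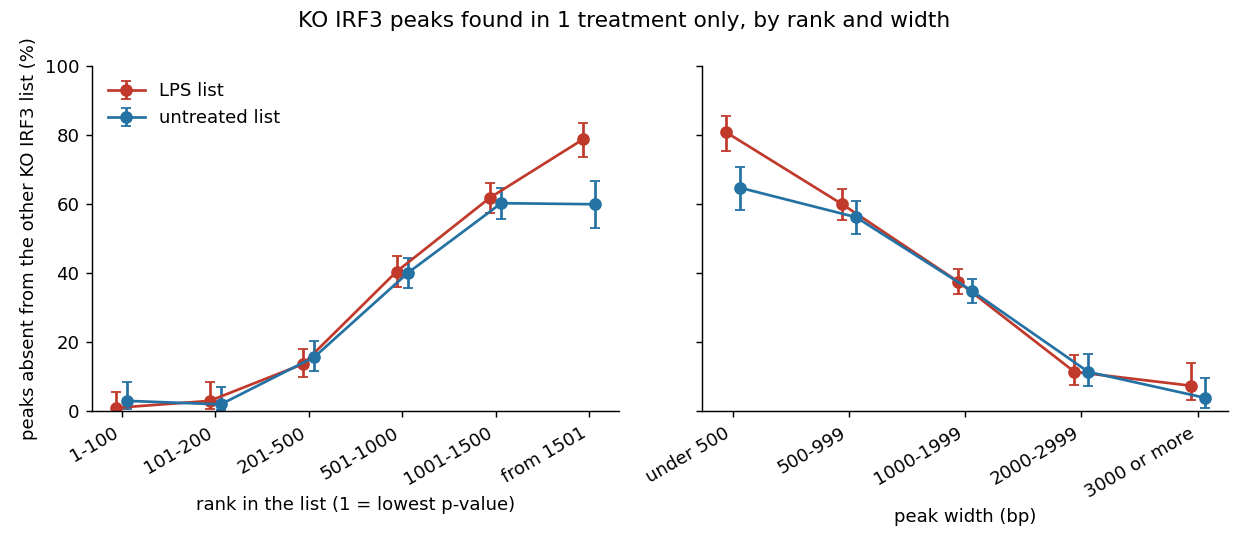
Share of KO IRF3 peaks with no overlap in the other treatment's list, by rank in the list (left) and by peak width in bp (right). Points are shares of the peaks in a bin, bars are exact 95% intervals, red is the LPS list and blue the untreated list; in the LPS list the unshared share went from 1 peak in the first 100 ranks to 78.8% from rank 1501 on.

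LPS-alone peaks were also the narrower ones. Their median width was 846 bp (quartiles 517.5 and 1359.75) against 1528.5 bp for shared LPS peaks. Untreated-alone peaks had a median of 864 bp against 1444.5 bp for shared untreated peaks, so the unshared peaks of both treatments had much the same width. Peaks narrower than 500 bp made up 24.6% of LPS-alone peaks and 4.57% of shared LPS peaks. Of the 239 LPS peaks under 500 bp, 80.8% were unshared, and of the 108 at 3000 bp or more, 7.41%. A wide peak meets a 1 bp rule more easily than a narrow one. Width and rank also went together. The median width of all LPS peaks fell from 2958 bp at ranks 1 to 100 to 689 bp from rank 1501 on. Widths of the classes at equal rank were not compared. The deposited signal value, whose normalization is not stated, had a median of 10.2 in LPS-alone and 13.1 in shared LPS peaks. In the untreated list the medians were 10.6 and 12.9.

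**Figure D2:**
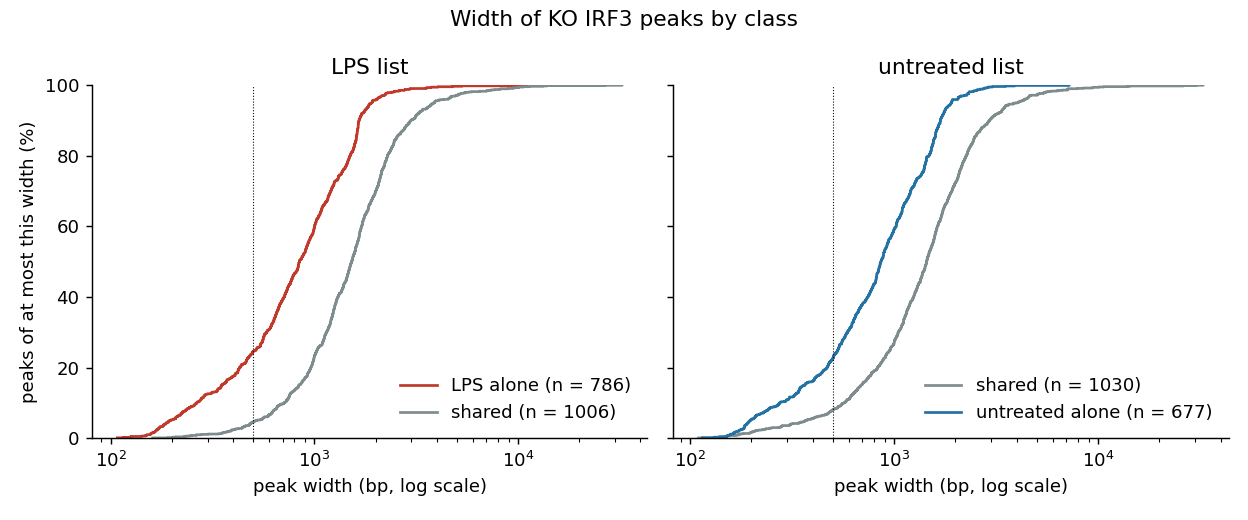
Cumulative share of peaks (%) by peak width (bp, log scale) in the LPS list (left) and the untreated list (right). Lines are the classes, and the dotted line stands at 500 bp; unshared peaks lie to the left of shared ones in both lists, with medians of 846 and 864 bp.

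The 6 lists from other samples gave a second look at each class. Shared LPS peaks were widely found there: 67.5% in the WT IRF3 LPS list, 54.3% in WT IRF3 untreated, 81.8% in KO NF-kB LPS, 88.8% in KO NF-kB untreated, 85.6% in WT NF-kB LPS and 65.0% in WT NF-kB untreated. All 6 lists held 363 of them (36.1%), and 22 (2.19%) stood in none. LPS-alone peaks were found less widely: 17.2%, 12.8%, 35.4%, 43.3%, 37.4% and 19.2% in the same order. With each of these 6 lists cut to the 1169 peaks of the shortest, these shares were 13.4%, 12.8%, 17.7%, 14.6%, 15.5% and 15.4%, so much of their spread went with list length. The KO IRF3 lists were not cut for this. For untreated-alone peaks the shares were 24.4%, 19.6%, 37.7%, 57.8%, 42.2% and 25.1%. No other list held 260 LPS-alone peaks (33.1%, 29.8 to 36.5%) or 135 untreated-alone peaks (19.9%, 17.0 to 23.2%). The 260 were narrow, with a median of 532.5 bp, and the best of them ranked 280.

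**Figure D3:**
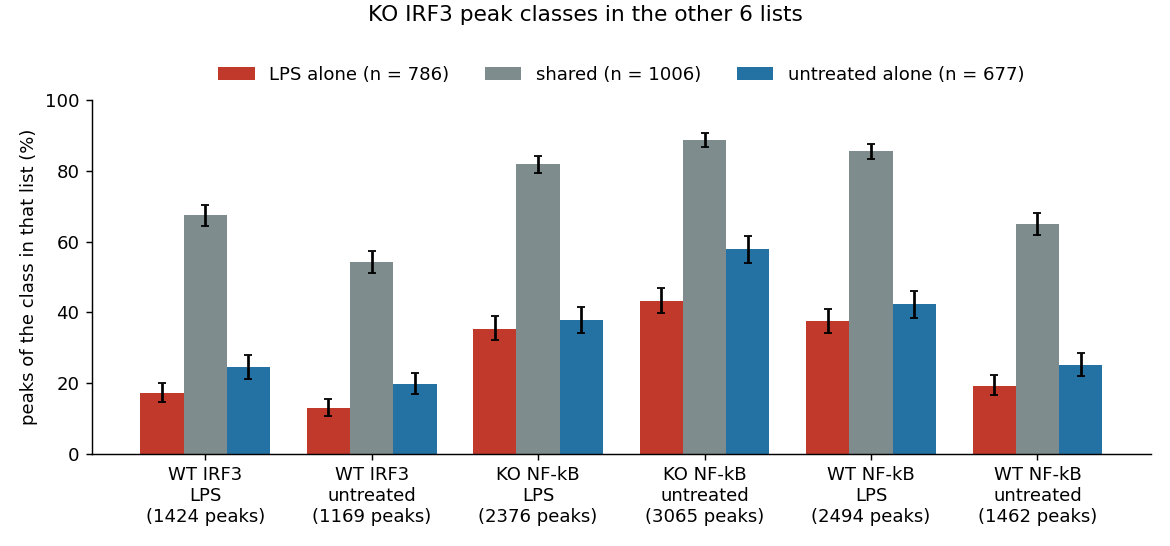
Share of each class of KO IRF3 peaks (%) that overlaps a peak of each of the other 6 lists, with the length of that list in brackets. Bars are shares and lines exact 95% intervals; shared peaks (grey) are highest in every list, and LPS-alone peaks (red) run from 12.8% in WT IRF3 untreated to 43.3% in KO NF-kB untreated, which is 14.6% when that list is cut to 1169 peaks.

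In the other groups, LPS-alone peaks were found with and without LPS. At least 1 untreated list of the other groups held 409 of the 786 LPS-alone peaks (52.0%, 48.5 to 55.6%). Only 117 (14.9%) were found in other LPS lists and in no other untreated list, and 94 (11.96%) in other untreated lists and no other LPS list. Both kinds of list held 315 (40.1%). Of the untreated-alone peaks, 125 (18.5%) were found in other untreated lists alone, 81 (11.96%) in other LPS lists alone and 336 (49.6%) in both. Of the 2 WT IRF3 lists, the LPS list alone held 94 LPS-alone peaks (11.96%) and the untreated list alone 60 (7.63%), while 591 (75.2%) were in neither. In the KO NF-kB lists, 99 LPS-alone peaks (12.6%) were in the LPS list alone and 161 (20.5%) in the untreated list alone. The KO NF-kB untreated list is the longest of all, with 3065 peaks. With both lists cut to 1169 peaks the direction turned, to 17.7% of LPS-alone peaks in KO NF-kB LPS and 14.6% in KO NF-kB untreated, from 35.4% and 43.3%.

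**Figure D4:**
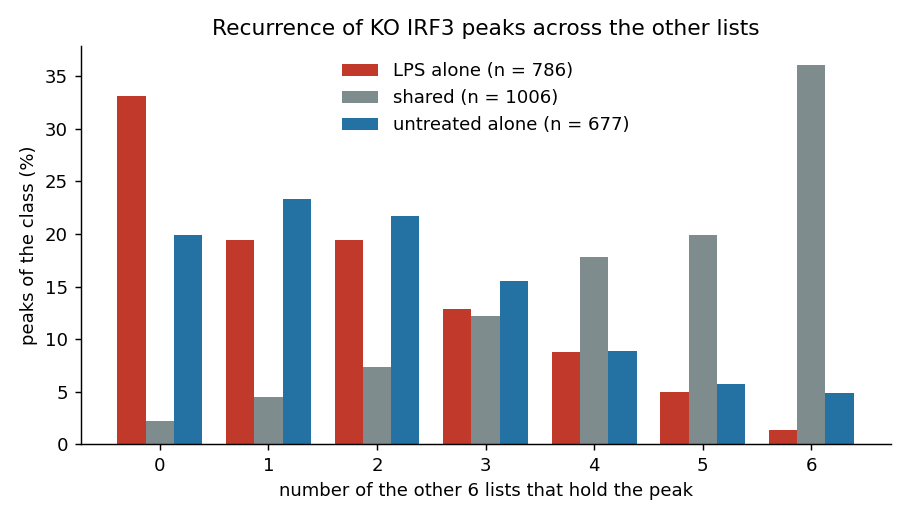
Number of the other 6 lists that hold a peak (horizontal axis) and share of the class (vertical axis, %). Bars are LPS-alone (red), shared (grey) and untreated-alone peaks (blue); 33.1% of LPS-alone peaks are in none and 36.1% of shared peaks in all 6.

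A few positions were listed with 1 treatment alone across all 8 lists. These genes and peaks were chosen after their values were seen. Of the 1006 shared LPS peaks, 5 were in all 3 other LPS lists and in no other untreated list. Among the 786 LPS-alone peaks the pattern was about as frequent. All 3 other LPS lists and no untreated list held 4 of these, with q-values from 0.305 to 0.612, and 2 of them touch each other. That pair lies 123 kb from Pard3b, a cell polarity gene, at chr1:61514394-61514815 and chr1:61514816-61515377, with ranks 611 and 707 and a signal value of 13.6. Its region ranked 220 in the WT NF-kB LPS list (q-value 0.0228), 488 in WT IRF3 LPS (q-value 0.331) and 1890 in KO NF-kB LPS (q-value 0.872). The others lie 6551 bp from the olfactory receptor gene Olfr834 (917 bp, rank 1084) and 24910 bp from Btbd35f22 (617 bp, rank 1136). The opposite pattern, in all 3 other untreated lists and no other LPS list, was met by 1 LPS-alone peak. Among the 677 untreated-alone peaks, 6 were in all 3 other untreated lists and in no LPS list, and 7 in all 3 other LPS lists and no other untreated list. Of the 1030 shared untreated peaks, 7 were in all 3 other untreated lists and in no other LPS list. The q-values of the 6 untreated-alone peaks ran from 0.194 to 0.911. The 6 lie within Vps13b, a lipid transfer gene of the Golgi (rank 317), near B3galnt2, a sugar transferase of dystroglycan (rank 461), and within Dnajc27 (2 touching peaks, ranks 693 and 1514), Nkain2 (rank 718) and Eea1, a tether of early endosomes (rank 1505).

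The best-ranked LPS-alone peak stood in the untreated lists of the other groups. It is the only LPS-alone peak with a q-value below 0.05 and was singled out for that after its values were seen. It is 438 bp wide, at chr17:4626160-4626597, in a region whose nearest protein-coding gene, Arid1b, a subunit of the BAF chromatin remodeller, is 367.7 kb away. It ranked 27 (q-value 0.00288), and its signal value of 72.2 was the highest of the LPS list. The nearest peak of the untreated KO IRF3 list was 519762 bp away. All 6 other lists held the position, including the untreated ones: rank 33 in WT IRF3 untreated, 681 in KO NF-kB untreated and 72 in WT NF-kB untreated, and rank 71 in WT IRF3 with LPS. Leaving this peak aside, no LPS-alone peak ranked above 196.

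The 8 best-ranked LPS-alone peaks with a gene within 100 kb were mostly wide and in or near genes of varied function. The first lies inside Rhox3h, a reproductive homeobox gene (chrX:37664470-37666112, 1643 bp, rank 198, q-value 0.0724), and all 6 other lists held it. The second is 42558 bp downstream of Fundc1, a receptor for the removal of mitochondria (chrX:17475805-17477408, rank 254), and 3 other lists held it. Inside Spock3, a secreted proteoglycan gene, a 3580 bp peak ranked 263, and inside Tacr3, the receptor for neurokinin B, a 1401 bp peak ranked 289. Both were in 5 other lists, among them the WT IRF3 LPS list but not the WT IRF3 untreated list. No other list held the peak 68152 bp downstream of the zinc finger gene Zfp980 (743 bp, rank 280) or that inside Dync2h1, the heavy chain of the ciliary dynein (1586 bp, rank 310). A peak 5585 bp downstream of Smim43 ranked 329 and was in 3 other lists. A peak inside Uxs1, which makes the sugar donor UDP-xylose, ranked 331 and was in 5 others, but not in WT IRF3 with LPS. None of these 8 had a q-value under 0.05, and 6 of the 8 were in other lists.

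In all, 11 LPS-alone peaks (1.40%) were in all 6 other lists, so the untreated KO IRF3 list was the only one without them. The reverse held for 33 untreated-alone peaks (4.87%), which only the KO IRF3 LPS list lacked. The 11 LPS-alone peaks include the Rhox3h peak and the one far from Arid1b. Others of the 11 lie inside Slc7a11, the cystine and glutamate exchanger (chr3:50469300-50471227, rank 857), F8, coagulation factor VIII (rank 702), Tenm1, a teneurin (rank 561), and Snx25, a sorting nexin (332 bp, rank 1644). These 4 were picked after their values were seen. The Slc7a11 peak ranked higher in the WT IRF3 lists, at 238 of 1424 with LPS and 298 of 1169 without.

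**Figure D5:**
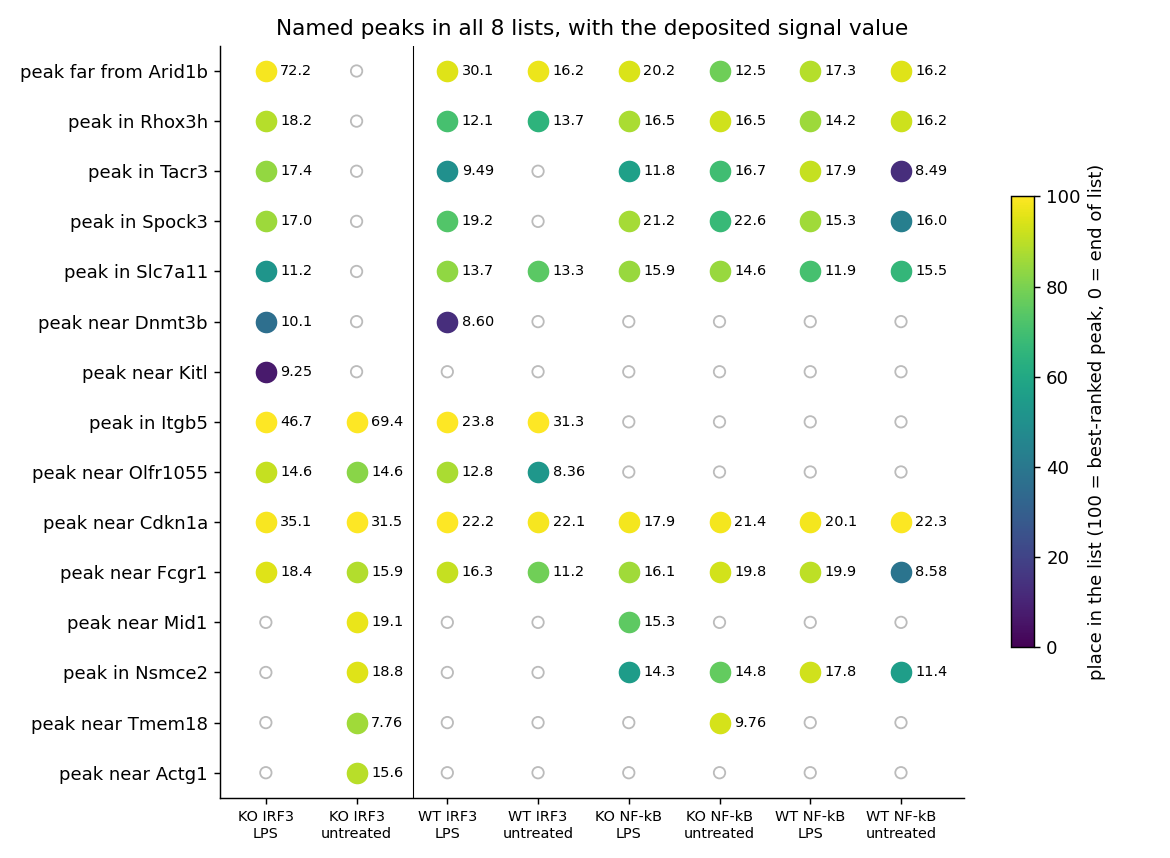
Named peaks (rows) in the 8 lists (columns). Filled points mark a peak in that list, coloured by its place in the list (100 is the best rank), with the deposited signal value beside them, and open points mark none; the peak in Itgb5 is filled in the 4 IRF3 columns alone, and the peak far from Arid1b in all columns but the untreated KO IRF3 list.

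Of the LPS-alone peaks under 500 bp with a gene within 100 kb, the 8 best-ranked include 2 inside Sfi1 (396 and 347 bp wide, ranks 650 and 704). The others lie 2348 bp from Zfp982 (202 bp wide, rank 593), 10952 bp from Frmd8 (438 bp wide, rank 705) and 12684 bp from Zfp978 (265 bp wide, rank 372). Farther away are those 45820 bp from Spopfm2 (411 bp wide, rank 768), 54705 bp from Gm40378 (488 bp wide, rank 627) and 57808 bp from Pramel44 (275 bp wide, rank 727). Another list held 3 of the 8: those whose nearest genes are Zfp982 and Gm40378, and the wider one in Sfi1.

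Of the 8 best-ranked shared peaks with a gene within 100 kb, 7 were also in all 4 NF-kB lists. Rank 1 in both KO IRF3 lists was a peak 80940 bp from the vomeronasal receptor gene Vmn1r2 (chr4:3089545-3091142, 1598 bp with LPS and 1552 bp without), and it ranked 1 or 2 in all 4 NF-kB lists. The other one ranked 2 in both lists. It is a narrow peak inside Itgb5, the beta 5 integrin subunit, at chr16:33849192-33849542 (351 bp with LPS, 484 bp without), 19.5 kb past the start of the gene. Its q-values were 5.60e-06 with LPS and 2.83e-06 without. Its signal value was 46.7 in the LPS list, the second highest there, and 69.4 in the untreated list, the highest there. The position ranked 2 in the WT IRF3 LPS list and 3 in WT IRF3 untreated, and no NF-kB list held it. It was thus found with and without LPS, in KO and in WT.

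Only 27 of the 1006 shared LPS peaks (2.68%) were in no NF-kB list, and 22 of these were in no other list at all. Both WT IRF3 lists held 2: the Itgb5 peak and a 233 bp peak at chr2:86341983-86342215, 4508 bp from the olfactory receptor gene Olfr1055 (rank 160 with LPS and 307 without), named after its values were seen. Of the LPS-alone peaks, 281 (35.8%) were in no NF-kB list. Of these, 5 were in both WT IRF3 lists, 12 in the WT LPS list alone and 4 in the WT untreated list alone.

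The other 6 leading shared peaks lay in or near genes of varied kinds. Ranks 3 and 3 fell on a 7273 bp peak 2875 bp upstream of 9230019H11Rik, and ranks 4 and 8 on a peak 6232 bp downstream of Gm15319. A peak 58078 bp from Mageb5, an X-linked gene of the melanoma antigen family, ranked 6 with LPS and 48 without. A peak near Gm39469 ranked 7 and 16, a 4161 bp peak beside Sfi1, a centrosome gene, 8 and 15, and a 7430 bp peak inside Tmem267 9 and 115. All but the last of these were below a q-value of 0.05 in both lists; the Tmem267 peak was at 0.0506 without LPS. A shared peak 3271 bp from Cdkn1a, the cell cycle inhibitor p21, ranked 19 with LPS and 5 without (5054 bp with LPS, q-value 0.00133). All 6 other lists held it, and it was named after its values were seen.

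Untreated-alone peaks included 3 with a q-value below 0.05. The best ranked 61 and is 3911 bp wide, 1285 bp downstream of Mid1, a ubiquitin ligase on microtubules (q-value 0.0188), and the KO NF-kB LPS list alone among the other 6 held it. The nearest LPS peak was 3002 bp away. The second, inside Nsmce2, a SUMO ligase of the SMC5/6 complex (3042 bp, rank 87, q-value 0.0293), was in all 4 NF-kB lists and in neither WT IRF3 list. The third, inside Gm2959 (3515 bp, rank 90, q-value 0.0322), was in all 6 other lists. So were the peaks 28221 bp from Magea4 (rank 244) and 2672 bp from Magea2 (rank 252). A 241 bp peak 19552 bp from Actg1, gamma actin, ranked 182 and was in no other list. At 61162 bp from Tcte2 a 570 bp peak ranked 183 and was in 4 others. Upstream of Tmem18 a 271 bp peak ranked 247, and the KO NF-kB untreated list alone held it, at rank 201 with a q-value of 0.0130.

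No listed gene of the interferon response lay within 10 kb of a peak of either list. The counts were 0 of 46 matched interferon-stimulated genes, 0 of 18 type I interferon genes, 0 of 22 genes of the IRF3 pathway from TLR4 to the interferon receptor, 0 of 46 NF-kB targets and 0 of 11 genes of mitochondrial stress and DNA sensing. Over all 21887 protein-coding genes the share was 3.75%, with 1.33% near an LPS-alone peak and 1.73% near a shared one. These zero counts hold for the listed genes only. Sp110 and Sp140, of the same family as the listed gene Sp100, were not listed. Each had 3 LPS-alone and 3 untreated-alone peaks within 10 kb. Among 26 macrophage identity genes 1 was near a peak. It is Fcgr1, the high-affinity receptor for IgG, 9504 bp from a shared peak at chr3:96270697-96273404 that ranked 90 with LPS (q-value 0.0231) and 196 without, and that all 6 other lists held. The gene start nearest to that peak is that of H2bc18, 996 bp away. In the untreated list the overlapping peak lies 10184 bp from Fcgr1, outside the 10 kb limit. Among 11 genes of DNA methylation 1 was near an LPS-alone peak. It is Dnmt3b, the other de novo DNA methyltransferase, with a 1557 bp peak 3791 bp past its end (chr2:153691522-153693078, rank 1146, q-value 0.622), and the WT IRF3 LPS list alone among the other 6 held that position. The lists of marker genes for macrophages and 6 other cell types gave Fcgr1 (1 of 12 macrophage markers) and Kitl (1 of 5 stromal markers). No gene of the T cell, B cell, neutrophil, dendritic and erythroid lists was within 10 kb of a peak. Kitl is the ligand of the receptor KIT. A 236 bp LPS-alone peak lies 9291 bp upstream of Kitl (rank 1673, in no other list).

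At 50 kb 4 more listed genes were near a peak, which made 6 of 177 (3.39%) beside 8.68% of all protein-coding genes. Azi2, an adaptor of TBK1, has shared peaks 18837 bp and 41986 bp away from it in the LPS list (ranks 187 and 521). Cxcl3, a neutrophil chemokine, has a shared peak 39404 bp away (rank 114, q-value 0.0341, and rank 108, q-value 0.0448, without LPS). Polg, the mitochondrial DNA polymerase, has an untreated-alone peak 10196 bp away. Sp100, a nuclear body protein induced by interferon, has an LPS-alone peak 39505 bp away and 2 untreated-alone peaks at 45315 and 49656 bp. These peaks lie inside the overlapping spans of Sp110 and Sp140, and all stood low in their lists. The LPS-alone peak ranked 1620 (q-value 0.903), and the untreated-alone peaks 1252 and 1593 (q-values 0.860 and 0.911).

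The 3 classes lay at similar distances from genes. A protein-coding gene span was overlapped by 29.6% (26.5 to 33.0%) of LPS-alone peaks, 28.4% (25.7 to 31.3%) of shared LPS peaks and 29.0% (25.6 to 32.5%) of untreated-alone peaks. Within 10 kb of a gene start lay 14.1%, 12.6% and 13.2%, and the median distance to a start was 50385, 57211.5 and 61547 bp. Start windows of chromosome 18 were not used, so distances to starts leave out that chromosome. The nearest gene was in a listed multi-copy family for 8.27% of LPS-alone, 8.85% of shared and 6.80% of untreated-alone peaks, against 9.54% of all protein-coding genes. Within those families, olfactory or vomeronasal receptors made 3.56, 4.08 and 3.545% (6.69% of genes) and zinc finger genes 3.31, 2.485 and 2.36% (1.95%). Predicted genes or Riken clones, counted apart, were nearest for 10.8, 9.64 and 12.1% (8.02% of genes). Chromosome X was the densest, with 1.08 LPS peaks and 0.896 untreated peaks per Mb. The unshared part of the LPS list ran from 28.6% on chromosome 17 to 51.7% on chromosome 3.

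In a few dense clusters both treatments had unshared peaks, beside 43.9% unshared over the whole LPS list and 39.7% over the whole untreated list. The genes that bound these clusters were picked by hand after the peaks were seen. Sfi1 had the most peaks of any single gene, with 11 LPS and 6 untreated peaks within 10 kb of its span (chr11:3131850-3203347), 8 and 3 of them unshared. The 8 unshared LPS peaks lay between 360 and 4480 bp from the nearest untreated peak, and 7 of them were in other lists. The cluster of Sp100, Sp110, Sp140 and the predicted genes Gm7592 and Gm38510 on chromosome 1, which codes for nuclear body proteins, held 10 LPS and 13 untreated peaks in 0.575 Mb. Of these, 7 and 10 were unshared, at best ranks of 1234 and 316, and the unshared LPS peaks lay between 2398 and 48301 bp from an untreated peak. The zinc finger cluster with Zfp978, Zfp993 and Rex2 on chromosome 4 held 28 LPS and 20 untreated peaks in 1.87 Mb, 15 and 6 of them unshared. There that distance ran from 3532 to 193974 bp. Peaks starting before 3.5 Mb of a chromosome numbered 41 in the LPS list (19 unshared) and 32 in the untreated list (9 unshared). They were 7 of the 100 best-ranked LPS peaks.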

How the data were processed

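ChIP-seq peak positions came from 8 merged lists, 1 per factor, genotype and treatment, in mm10. Per the submitters' processing notes the tools include MACS2 2.1.1, HOMER 4.9, Picard 2.8.0 and deepTools 3.5.0, with no role given. The aligner, the calling threshold and the way replicates were merged are not given in these sources. Chromatin was sheared to between 100 and 300 bp, per the labels. Each deposited peak carries a signal value (a score with no stated normalization) and the authors' p-value and q-value. These were used to rank, describe and filter peaks within a list only. What the p-values and q-values test is not stated: if replicates were combined by rank, these values speak of that agreement between replicates rather than of enrichment over input.

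Overlaps were computed with Python 3.11.15, numpy 2.4.6, pandas 2.3.3 and scipy 1.17.1, and the overlap code was tested on simulated data with 1792 intervals under 4 rules, with 0 wrong answers. No list held peaks outside chromosomes 1 to 19, X and Y. Regions of all 8 lists were joined where they overlapped, and the 360 in all 8 lists are called recurrent below. Gene spans came from RefSeq for GRCm38.p6, and start sites and strands from its 32851 start windows. Motifs were looked for in those windows, and the sequence of the peaks themselves was not used here. Of 49 interferon-stimulated genes 46 matched, and of the T cell markers 5 of 6.

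Named peaks are the 8 best-ranked of each class with a gene within 100 kb, the 8 best-ranked LPS-alone peaks under 500 bp with such a gene, listed genes with a peak within 10 kb, and up to 6 genes with 3 or more peaks. Others are said to be chosen later. The members and lists were chosen with earlier results of these data known. The bisulfite, ATAC-seq and input samples of the series were not used here.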

Additional observations from a re-analysis of the deposited data

How the results depend on the processing

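No paired analysis was possible because only merged lists were used, so no result comes from a test and no value belongs to a single sample. Against main counts of 786 LPS-alone, 1006 shared and 677 untreated-alone peaks, every count stayed within 1.5 times when 50% of the shorter peak or of both peaks had to overlap, when peaks within 1 kb counted, with lists of equal length, without chromosomes X and Y, and (added after seeing the data) without multi-copy genes, predicted genes and chromosome starts. With a q-value under 0.05 in both lists the counts were 70, 73 and 40, so 51.0% were shared. With that limit on LPS peaks alone they were 1 and 142. Among the 500 best-ranked they were 186, 314 and 186, and among peaks under 500 bp 217, 22 and 212. Without recurrent regions 636 shared peaks were left. Recurrent regions hold both KO IRF3 lists by definition, so their removal says nothing of the unshared counts. The median width of shared peaks was 1600 bp with reciprocal overlap and 1242 bp without recurrent regions, and the other medians stayed within their intervals.

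Shares of LPS-alone peaks in the lists WT IRF3 LPS, WT IRF3 untreated, KO NF-kB LPS, KO NF-kB untreated, WT NF-kB LPS and WT NF-kB untreated were 14.2, 10.6, 26.1, 33.8, 28.8 and 14.98% with reciprocal overlap. Among peaks under 500 bp they were 9.33, 8.29, 16.6, 15.03, 17.1 and 7.77%. With each list cut to 1169 peaks they were 13.4, 12.8, 17.7, 14.6, 15.5 and 15.4%, so the order of the main values went with list length. The 1 peak with a q-value under 0.05 was in each list (100%). Near a gene span lay 30.0, 29.1 and 29.1% (LPS-alone, shared, untreated-alone) within 1 kb, 38.4, 37.0 and 37.4% within 10 kb and 54.8, 53.8 and 55.8% within 50 kb. Of the 177 listed genes, cell type markers such as Kitl aside, 2 (1.13%) were near a peak at 10 kb and 6 (3.39%) at 50 kb, beside 3.75% and 8.68% of all genes, and 1 with a q-value under 0.05.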

Other observations

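Further values on the KO IRF3 lists belong to no comparison above, and these peaks were chosen after their values were seen. The untreated-alone peak with the highest signal value of its class, 30.4, is 2064 bp wide and overlaps Tdpoz3, a gene of a speckle-type family (rank 561, q-value 0.353). No other list held it, and the nearest LPS peak was 2158 bp away. The LPS-alone peak with the second highest signal value of its class, 32.6, is 1610 bp wide and 90496 bp from Cldn34c2, a claudin gene on chromosome X (rank 1362, q-value 0.763), and no other list held it. Both had a high signal value and a rank beyond the best 500.

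Of 1319 stretches of 500 kb with an LPS peak, 76 had 3 or more and held 293 LPS peaks (16.4% of the list). Of 1249 stretches with an untreated peak, 74 had 3 or more and held 271 untreated peaks (15.9%). Whether this departs from an even spread of peaks was not tested.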
